A study of Mus musculus with 6 samples.

Results

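The genes described here are 50 mitosis genes, a list that runs from the kinases that start division to the proteins that part the daughter cells and that leaves out the kinesin motor family, apart from Cenpe, which is itself a kinesin motor of the kinetochore. A gene was included when the array annotation gave a probe set that single symbol, which held for 48 of the 50 genes and for 112 probe sets, out of 18193 genes and 45037 probe sets tested. Ccnb1 and Sgol1 had no probe set under these symbols. RefSeq lists Sgol1 as a synonym of Sgo1, whose brighter probe set read 10.35, 10.53 and 10.43 on GFP-negative and 10.77, 11.01 and 11.10 on GFP-positive arrays (log2 intensity). It rose 1.44-fold (limma adjusted p = 0.0347, a call that, with 1 array left out at a time, held only without GFP-positive array 1), and it is not counted below.

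The samples were mouse bone marrow cells without lineage markers, with c-Kit and without Sca-1 on their surface, a phenotype that holds the progenitors of red cells, platelets, granulocytes and monocytes. All came from male mice aged 6 weeks with the genotype Hes1 GFP/WT, in which 1 allele carries a green fluorescent protein reporter of Hes1, a target gene of Notch signalling. GFP-positive and GFP-negative cells made up 3 Affymetrix arrays each, with 5 ng of amplified total RNA per array. The arrays are called N1, N2 and N3 (GFP negative) and P1, P2 and P3 (GFP positive). The question is how expression differs with activity of the reporter.

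The labels do not say whether arrays of a group come from separate animals, so the p-values reflect spread among the deposited samples alone, and that spread may be technical. Hes1 itself rose 2.40-fold (5.88 ± 0.14 to 7.15 ± 0.04 log2 intensity, SD, n = 3 each). Kit, the gene of the c-Kit receptor used in the sort, read 11.42 ± 0.11 on GFP-negative and 11.17 ± 0.06 on GFP-positive arrays. Arrays of a group correlated at 0.989 to 0.993 and arrays of different groups at 0.973 to 0.979 across probe sets. The 3' to 5' difference of beta-actin, a sign of RNA quality, ran from 0.54 to 0.63 on GFP-negative and from 0.57 to 0.69 on GFP-positive arrays (log2). Immunoglobulin kappa (Igk) stood apart on N3 at 9.99 and P1 at 11.14, against 5.07 to 7.61 on the other 4 arrays. The heavy chain gene Ighm did not follow this pattern, reading 10.11, 9.79 and 9.91 on N1, N2 and N3 and 8.35, 7.69 and 7.87 on P1, P2 and P3. The eosinophil marker Prg2 read 3.43 on P1, 4.31 on P2 and 10.89 on P3, against 9.69 to 10.98 on GFP-negative arrays, so that P3 stood apart from its group. The number of called members is also given without N3 and P1 together, and without each array alone.

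Cells enter mitosis when the kinase Cdk1, bound to a B-type or A-type cyclin, is switched on by Cdc25 phosphatases and helped by the kinases Plk1 and Aurka. Chromosomes are compacted by condensin, attached to the spindle through kinetochores, and held together until the spindle checkpoint releases the anaphase-promoting complex, after which a contractile ring divides the cell. Most of these transcripts accumulate in the second gap phase and in mitosis, and many are used as markers of dividing cells.

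Mitosis genes were higher in GFP-positive progenitors. Of the 48 measured genes, 25 rose and 0 fell (limma, Benjamini-Hochberg adjusted p under 0.05 over all probe sets), against 8.15% of all genes called higher and 9.92% called lower. The genes called higher made up 52.1% of the list. By unadjusted p under 0.05, 39 of the 48 differed and 0 of them were lower. Of all 18193 genes, 3995 were higher and 2748 lower by that measure. The difference was above 0 in 47 of 48 genes, compared with 64.6% of all genes, the exception being the phosphatase Cdc25b. All 3 GFP-positive arrays lay above all 3 GFP-negative arrays in 39 genes, a pattern seen in 28.9% of all genes, and the groups overlapped in the other 9. The median difference was 0.48 on the log2 scale, a 1.40-fold rise, against 0.11 over all genes.

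The members were well-measured genes, so the same shares were taken over the 8156 genes at least as bright as the dimmest member. There 11.7% were called higher, 14.4% lower, 29.7% had all GFP-positive arrays on top and 55.9% lay above 0, with a median difference of 0.05. The rises were modest: 17 members differed by at least 1.5-fold and 3 by at least 2-fold, namely Plk1, Aurka and Aspm. These are bulk samples, in which a larger share of mitotic cells and more mitotic RNA per cell cannot be told apart.

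The number of called genes moved with single arrays, while the direction did not. Removing N1 gave 18 called genes, N2 15, N3 11, P1 17, P2 12 and P3 15. The share of all genes called higher fell as well, from 8.15% to between 3.37% (without N3) and 6.23% (without N1). With N3 and P1, the arrays with high Igk, both removed, 3 genes were called: Plk1, Cenpa and Aspm, with a median difference of 0.42 and 47 of 48 genes above 0. Over all genes, that setting took the share called higher from 8.15% to 2.08%. The 10 members called in each of the 6 fits without 1 array were Plk1, Aurka, Nek2, Cdc20, Ube2c, Cenpa, Aspm, Dlgap5, Gtse1 and Anln. Of these, Nek2 (adjusted p = 0.125), Cenpa (adjusted p = 0.108) and Dlgap5 (adjusted p = 0.115) were not called when the most variable probe set stood for each gene. With array medians subtracted, 33 members were called higher and 0 lower, and the share of all calls that were higher went from 45.1% to 60.8%. The share of all genes called higher went from 8.15% to 14.6%.

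**Figure D1:**
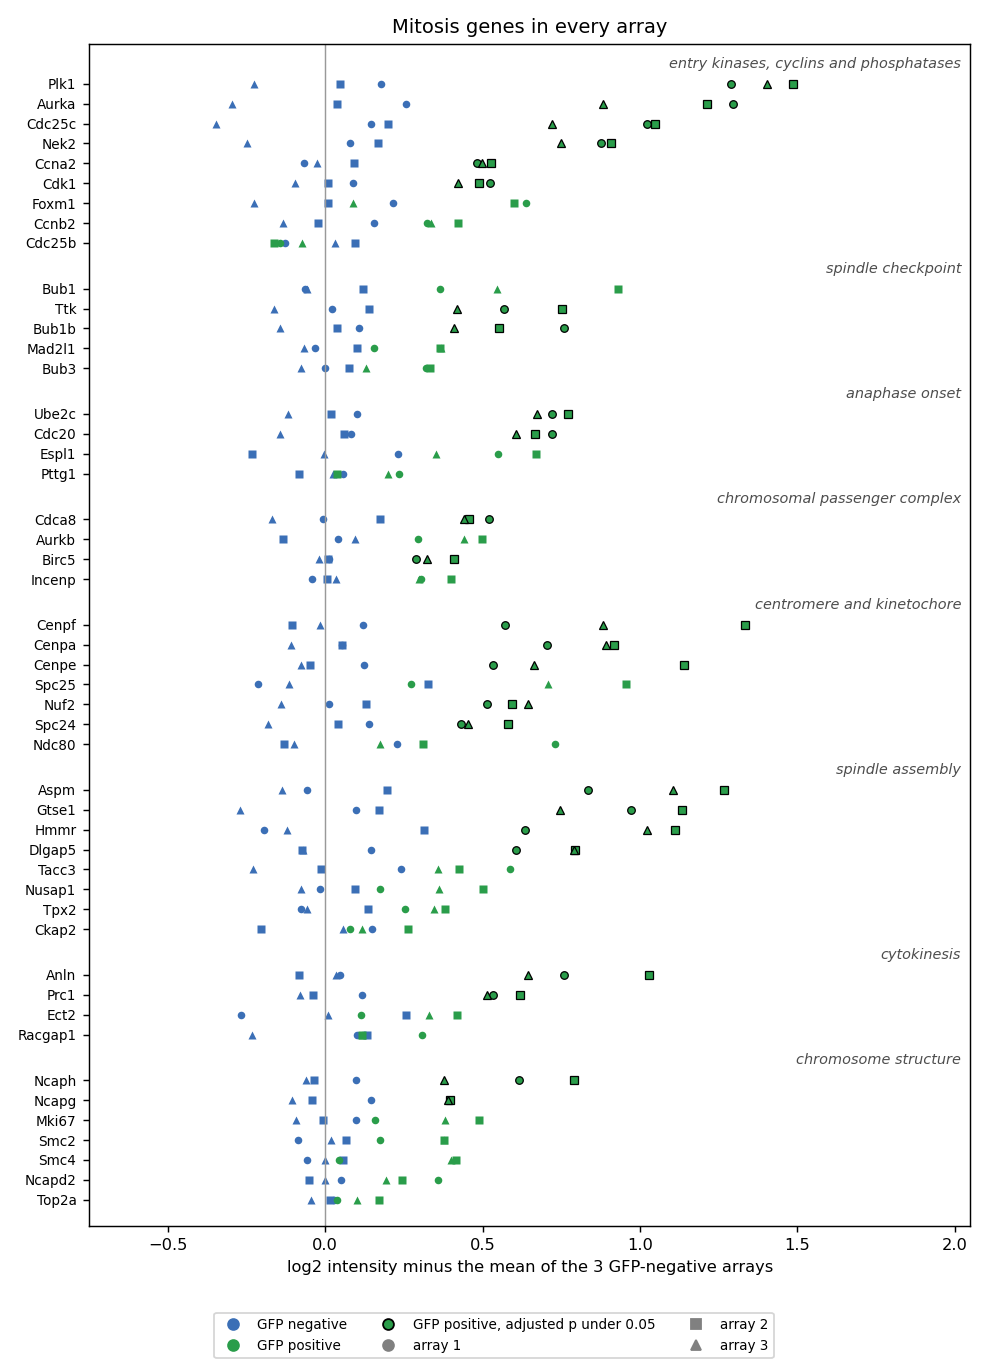
Each row is a mitosis gene, grouped by role, and each point 1 array, plotted as log2 intensity minus the mean of the 3 GFP-negative arrays (blue GFP negative, green GFP positive, marker shape the array number, black outline a gene called higher). GFP-positive points lie to the right of the blue points in 39 of 48 rows, farthest for Plk1, and mix with them in the other 9, among them Cdc25b.

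Arrays within a group also differed. The mean over the 48 genes was 10.61, 10.60 and 10.46 on GFP-negative arrays 1, 2 and 3 and 11.05, 11.19 and 11.04 on GFP-positive arrays 1, 2 and 3 (mean log2 intensity). The groups did not overlap in this mean, and the gap between them exceeded the spread within either group (SD 0.08 in each). N3 was the lowest of its group for 29 of the 48 genes and the highest for 2. P2 was the highest of its group for 33 genes and the lowest for 3. The median intensity of all probe sets ran from 59.9 to 62.1 on GFP-positive and from 63.6 to 64.8 on GFP-negative arrays, opposite to the direction of the members.

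The genes that drive entry into mitosis held the largest difference of the list. Of 9 measured, 6 rose and 0 fell, against 8.15% of all genes called higher and 9.92% called lower. Plk1, a kinase that promotes mitotic entry, centrosome maturation and chromosome separation, read 8.85, 8.73 and 8.45 on GFP-negative arrays 1 to 3. On GFP-positive arrays it read 9.97, 10.16 and 10.08. Every GFP-positive value was thus more than 1 log2 unit above every GFP-negative value. Plk1 rose 2.62-fold (log2 difference 1.39 ± 0.13, SE; adjusted p = 0.00194).

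Aurka, the kinase of centrosomes and spindle poles, read 9.90, 9.68 and 9.35 on GFP-negative arrays and 10.94, 10.86 and 10.53 on GFP-positive arrays. It rose 2.19-fold (1.13 ± 0.18, SE; adjusted p = 0.0107), with array 3 the lowest of each group. Cdc25c, a phosphatase that activates Cdk1, read 9.77, 9.83 and 9.28 against 10.65, 10.68 and 10.35. It rose 1.91-fold (0.93 ± 0.18, SE; adjusted p = 0.0205), and the call was lost without P1 or P2 (adjusted p up to 0.0697).

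The related phosphatase Cdc25b showed no clear difference. It read 11.33, 11.55 and 11.49 on GFP-negative arrays and 11.31, 11.29 and 11.38 on GFP-positive arrays, a log2 difference of -0.13 ± 0.10 (SE; adjusted p = 0.418). The groups overlapped. Cdc25b was the only member with a difference below 0 on its brightest probe set.

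Nek2, a kinase that separates centrosomes, rose 1.80-fold (adjusted p = 0.0104). Cyclin A2 (Ccna2) rose 1.42-fold on its brightest probe set (adjusted p = 0.0154), a call lost without N3, P2 or P3. Cdk1, the kinase at the centre of mitotic entry, read 11.89, 11.81 and 11.71 against 12.33, 12.29 and 12.23. It rose 1.39-fold (adjusted p = 0.0214), a call that of the 6 single removals survived only that of N1 (adjusted p up to 0.0811). Cyclin B2 (Ccnb2) had a log2 difference of 0.36 (adjusted p = 0.0755) and did not overlap between groups. Foxm1, the transcription factor of many genes of this list, had 0.44 (adjusted p = 0.171), with overlapping groups.

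The promoter sequences of these genes can be set beside their values, since many mitosis genes share a pair of elements. The cell cycle genes homology region (CHR), written TTTGAA, is a binding element of the MuvB complexes that repress such genes in resting cells and, with Foxm1, activate them before mitosis. The CCAAT box binds the activator NF-Y. RefSeq windows of 300 bases (250 before to 50 after the annotated start, GRCm38.p6) were found for 39 of the 48 genes and searched on both strands. The CHR letters occurred for 27 of the 39 genes, or 69.2%, against 20.2% of all 27025 genes with a window, and in 69.8% of member windows against 17.9% of all windows. CCAAT occurred for 30 genes, or 76.9%, against 41.1%. Both occurred in the same window for 25 genes, or 64.1%, against 7.97% of all genes. In 1 member window a CHR and a CCAAT match overlapped.

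The stretches of 120 bases before the annotated start are given for the member with the largest rise, for 3 other called members, and for Top2a and Cdc25b, which were not called. They run 5′ to 3′ on the gene's strand, with matches to CHR (TTTGAA, or TTCAAA on the other strand) and CCAAT (or ATTGG) in capitals.
Plk1, chr7:122159315-122159434, plus strand: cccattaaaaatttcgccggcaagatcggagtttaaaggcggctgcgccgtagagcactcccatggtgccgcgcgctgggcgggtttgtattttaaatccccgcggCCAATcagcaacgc
Cdc20, chr4:118437344-118437463, minus strand: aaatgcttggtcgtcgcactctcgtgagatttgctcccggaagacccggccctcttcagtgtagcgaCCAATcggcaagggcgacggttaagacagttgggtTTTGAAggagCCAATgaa
Cdk1, chr10:69352913-69353032, minus strand: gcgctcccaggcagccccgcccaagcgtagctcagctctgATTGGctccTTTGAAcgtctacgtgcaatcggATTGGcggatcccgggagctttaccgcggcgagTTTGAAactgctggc
Ube2c, chr2:164769809-164769928, plus strand: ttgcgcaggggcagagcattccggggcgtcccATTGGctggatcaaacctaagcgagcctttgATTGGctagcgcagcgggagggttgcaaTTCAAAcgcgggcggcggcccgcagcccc
Top2a, chr11:99024190-99024309, minus strand: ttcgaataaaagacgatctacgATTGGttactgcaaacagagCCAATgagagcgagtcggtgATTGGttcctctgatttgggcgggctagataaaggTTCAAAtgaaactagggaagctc
Cdc25b, chr2:131186828-131186947, plus strand: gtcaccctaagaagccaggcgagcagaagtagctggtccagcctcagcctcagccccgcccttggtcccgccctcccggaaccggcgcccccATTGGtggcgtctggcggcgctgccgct

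Cdc20, Cdk1 and Ube2c carried both elements in the stretch shown, with the CHR nearest the start lying 18, 15 and 29 bases before it. In Plk1 the CCAAT box lay 14 bases before the start, and its CHR match began 30 bases after it, outside the stretch. Top2a, which had the smallest log2 difference above 0, carried the same pair, with a CHR match 23 bases before the start. Cdc25b had 1 CCAAT match and no CHR letters in its window.

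The letters thus did not sort called from uncalled members. CHR occurred for 15 of 21 called genes with a window and for 12 of 18 that were not called, or 71.4% and 66.7%. The list of mitotic kinesins, given for comparison, had CHR letters for 10 of 11 genes. DNA replication genes had them for 5 of 37, or 13.5%, while TTCCCGC, a form of the E2F element, occurred for 14 of 37 of them and for 1 of the 39 mitosis genes. A match describes letters in a window and does not show binding.

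The spindle checkpoint holds anaphase until every kinetochore is attached. Of its 5 genes, 2 rose and 0 fell, where 8.15% of all genes were called higher. All 5 had every GFP-positive array above every GFP-negative array on the brightest probe set, a pattern seen in 28.9% of all genes. Ttk, the kinase that starts checkpoint signalling, read 9.45, 9.57 and 9.26 on GFP-negative and 9.99, 10.18 and 9.85 on GFP-positive arrays. It rose 1.49-fold (0.58 ± 0.13, SE; adjusted p = 0.0342). Its other, dimmer probe set overlapped between groups at 0.25 (adjusted p = 0.722), and the mean of both gave 0.42 (adjusted p = 0.225), so the call rests on the brighter one. Bub1b, which encodes the inhibitor BubR1, read 10.59, 10.52 and 10.34 against 11.24, 11.04 and 10.89. It also rose 1.49-fold (0.57 ± 0.13, SE; adjusted p = 0.0333). For both, the call survived only the removal of P3 (adjusted p up to 0.108 for each).

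The other checkpoint genes did not pass. Bub1, a kinase of the kinetochore, had the larger log2 difference of 0.61 but a wider spread on GFP-positive arrays (10.40, 10.96 and 10.58; adjusted p = 0.0535), and it passed without P1 (adjusted p = 0.0403; up to 0.151 without another array). Mad2l1, which encodes the checkpoint effector Mad2, had 0.30 (adjusted p = 0.115), and its partner Bub3 had 0.26 (adjusted p = 0.139).

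At anaphase onset the anaphase-promoting complex, with its activator Cdc20 and its ubiquitin-conjugating enzyme Ube2c, marks securin (Pttg1) for destruction and frees separase (Espl1) to cut cohesin. Of these 4 measured genes, 2 rose and 0 fell, where 8.15% of all genes were called higher. Ube2c read 12.00, 11.92 and 11.79 on GFP-negative arrays and 12.62, 12.67 and 12.58 on GFP-positive arrays. It rose 1.65-fold (0.72 ± 0.10, SE; adjusted p = 0.00603). Cdc20 read 10.86, 10.83 and 10.63 against 11.49, 11.44 and 11.38. It rose 1.58-fold (0.66 ± 0.10, SE; adjusted p = 0.00927), and all 3 of its probe sets were called higher.

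Separase and securin did not pass. Espl1 had a log2 difference of 0.52 (adjusted p = 0.0703) with groups that did not overlap. Securin read 12.03, 11.90 and 12.00 on GFP-negative arrays and 12.21, 12.02 and 12.18 on GFP-positive arrays, so that the groups overlapped (0.16 ± 0.10, SE; adjusted p = 0.323). Its dimmest probe set pointed the other way at -0.41 (adjusted p = 0.267).

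The chromosomal passenger complex, in which the kinase Aurkb acts with Incenp, survivin (Birc5) and borealin (Cdca8), corrects faulty attachments and later guides cytokinesis. On the brightest probe set, all 4 genes had every GFP-positive array above every GFP-negative array, a pattern seen in 28.9% of all genes. Their log2 differences there ran from 0.33 to 0.47. Cdca8 read 12.13, 12.31 and 11.97 on GFP-negative and 12.66, 12.60 and 12.58 on GFP-positive arrays. It rose 1.39-fold (0.47 ± 0.11, SE; adjusted p = 0.0421), and the call survived only the removal of N2 (adjusted p up to 0.120). Birc5 read 12.77, 12.77 and 12.74 against 13.05, 13.17 and 13.08, with the tightest GFP-negative group of the list. It rose 1.27-fold (0.34 ± 0.09, SE; adjusted p = 0.0468), and each single removal ended the call (adjusted p between 0.0678 and 0.142).

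Aurkb and Incenp lay just past the threshold. Aurkb had a log2 difference of 0.41 (adjusted p = 0.0535) and Incenp 0.33 (adjusted p = 0.0508). A second probe set of each was called higher, at 0.70 for Aurkb (adjusted p = 0.0437) and 0.46 for Incenp (adjusted p = 0.0451).

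Of 7 centromere and kinetochore genes, 5 rose and 0 fell, against 8.15% of all genes called higher and 9.92% called lower. Cenpa, the histone H3 variant that marks centromeres, read 11.34, 11.34 and 11.18 on GFP-negative arrays and 11.99, 12.21 and 12.18 on GFP-positive arrays. It rose 1.79-fold (0.84 ± 0.11, SE; adjusted p = 0.00469). Cenpf, a large kinetochore and nuclear matrix protein, read 8.03, 7.81 and 7.90 against 8.48, 9.25 and 8.79. It rose 1.90-fold (0.93 ± 0.20, SE; adjusted p = 0.0293). Cenpe, the kinesin motor that carries chromosomes to the spindle equator, read 9.37, 9.19 and 9.17 against 9.78, 10.38 and 9.91, and rose 1.72-fold (0.78 ± 0.17, SE; adjusted p = 0.0329).

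Cenpe and Cenpf shared an array pattern, with close GFP-negative values and a GFP-positive group led by array 2. The removal of N1, N2, N3 or P3 ended both calls (adjusted p up to 0.107 and 0.0948). In the Ndc80 complex, which grips microtubule ends, Nuf2 rose by 0.58 on the log2 scale (adjusted p = 0.0165) and Spc24 1.40-fold (adjusted p = 0.0399). Nuf2 lost its call without N3, P2 or P3, and Spc24 kept it only without N1. The other subunits did not pass: Spc25 had 0.65 (adjusted p = 0.105) and Ndc80 0.41 (adjusted p = 0.180), with overlapping groups in each.

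Spindle assembly genes split evenly, with 4 of 8 higher and 0 lower, where 8.15% of all genes were called higher. Aspm, a protein of spindle poles, read 9.76, 10.01 and 9.68 on GFP-negative and 10.65, 11.08 and 10.92 on GFP-positive arrays. It rose 2.10-fold (1.07 ± 0.15, SE; adjusted p = 0.00706). Gtse1, a microtubule-binding protein of the second gap phase and mitosis, read 7.63, 7.70 and 7.26 against 8.50, 8.66 and 8.27. It rose 1.93-fold (0.95 ± 0.16, SE; adjusted p = 0.0133). Hmmr, a hyaluronan receptor that also binds spindle microtubules, read 10.08, 10.59 and 10.15 against 10.90, 11.38 and 11.29, and rose 1.90-fold (0.92 ± 0.19, SE; adjusted p = 0.0249).

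In each of these 3 genes the lowest GFP-positive array exceeded the highest GFP-negative array. The margin was narrowest for Hmmr, which lost its call without N1, N3, P2 or P3 (adjusted p up to 0.0887). Dlgap5, which stabilises spindle fibres, rose 1.66-fold (adjusted p = 0.00871). Tpx2, the activator of Aurka at the spindle, had 0.33 on its brightest probe set (adjusted p = 0.0837). Tacc3 had 0.46 (adjusted p = 0.0864), Nusap1 0.35 (adjusted p = 0.101) and Ckap2 0.15 (adjusted p = 0.437). Tacc3 was called without N1 (adjusted p = 0.0491; up to 0.212 without another array).

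Of the 4 cytokinesis genes 2 rose and 0 fell, where 8.15% of all genes were called higher. Anln, which encodes anillin, the scaffold of the contractile ring, read 8.96, 8.83 and 8.94 on GFP-negative arrays and 9.67, 9.94 and 9.55 on GFP-positive arrays. It rose 1.75-fold (0.81 ± 0.13, SE; adjusted p = 0.00964). Prc1, which bundles microtubules of the central spindle, read 12.00, 11.85 and 11.81 against 12.42, 12.51 and 12.40. It rose 1.47-fold (0.56 ± 0.10, SE; adjusted p = 0.0142), a call lost without N2, N3 or P2 (adjusted p up to 0.0594).

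The regulators of the small GTPase RhoA at the division plane did not pass. The exchange factor Ect2 had a log2 difference of 0.29 (adjusted p = 0.273) and its activator Racgap1 had 0.18 (adjusted p = 0.390). The groups overlapped for both.

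Genes of chromosome structure had the lowest median difference of the 8 roles at 0.31, with 2 of 7 higher and 0 lower. Over all genes 8.15% were called higher. The condensin subunit Ncaph read 9.58, 9.45 and 9.42 on GFP-negative and 10.10, 10.27 and 9.86 on GFP-positive arrays. It rose 1.51-fold (0.60 ± 0.13, SE; adjusted p = 0.0309), and the call survived only the removal of P3 (adjusted p up to 0.105). Ncapg, another condensin subunit, read 11.72, 11.53 and 11.47 against 11.97, 11.97 and 11.96. It rose 1.31-fold (0.39 ± 0.10, SE; adjusted p = 0.0489), kept only without N1 (adjusted p up to 0.150).

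Mki67 and Top2a, both widely used as proliferation markers, belonged to the uncalled genes. Birc5, which was called, had about the same log2 difference as Mki67 (0.34). Mki67, the gene of the Ki-67 antigen, read 12.32, 12.22 and 12.13 on GFP-negative arrays and 12.38, 12.72 and 12.61 on GFP-positive arrays (0.34 ± 0.12, SE; adjusted p = 0.109). Topoisomerase Top2a read 12.39, 12.37 and 12.31 against 12.40, 12.53 and 12.46, a log2 difference of 0.10 ± 0.09 (SE; adjusted p = 0.454). The groups did not overlap for either gene, though the margin was under 0.1 in both. The remaining condensin genes gave 0.31 for Smc2 (adjusted p = 0.0987), 0.29 for Smc4 (adjusted p = 0.182) and 0.27 for Ncapd2 (adjusted p = 0.107). Whether chromosome structure genes differ from the entry genes in their response was not tested.

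Several probe sets report the same gene for 33 of the 48 members. No member had probe sets called in opposite directions. Over all 112 probe sets, 46 were called higher and 0 lower, or 41.1%, against 7.36% of all probe sets with 1 gene. On top of the 25 genes called on their brightest probe set, 4 were called on another, namely Aurkb, Incenp, Tpx2 and Smc2. Tpx2 had 0.33 at a mean log2 intensity of 12.32 and 0.73 at 10.80. Smc2 had 0.31 at 12.02, 0.58 at 11.04 and 0.65 at 10.00, and Ccna2 had 0.50 at 12.44 and 0.99 at 11.43.

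In these genes the dimmer probe set gave the larger difference. Taking probe sets with a mean of at least 8, a floor chosen after the data were seen, 24 members had several, and the dimmest exceeded the brightest in 16 of them, or 66.7%. Among all genes with several such probe sets and a mean difference above 0, this held for 71.7% of 1899, so it was not particular to mitosis genes. In genes with a mean difference below 0 the dimmest probe set was the more negative in 52.5% of 1294. Ordered by mean intensity, the 16 brightest members had a median difference of 0.34, the 16 in the middle 0.53 and the 16 dimmest 0.76. The cause of this order was not tested.

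**Figure D2:**
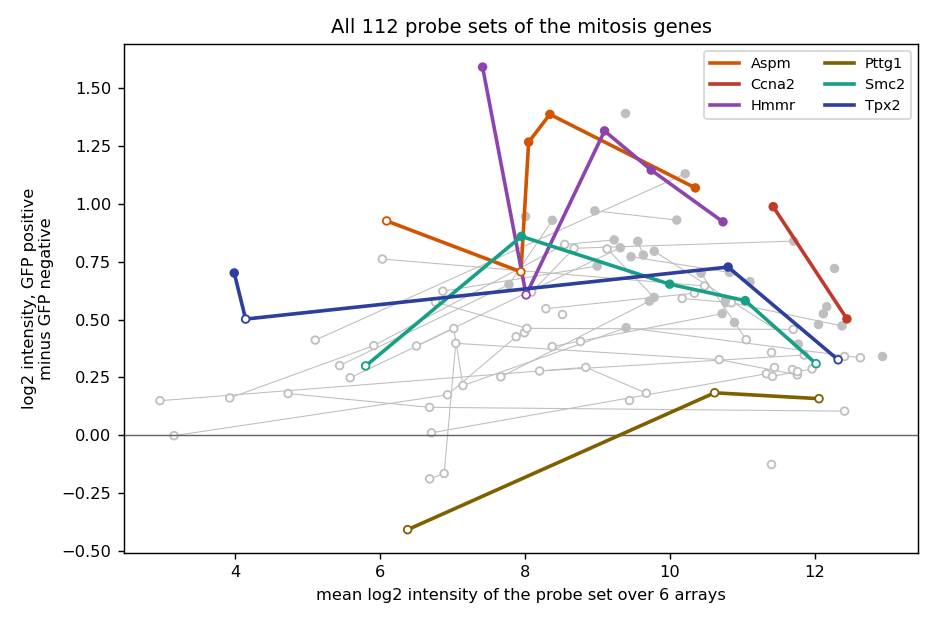
Every probe set of the 48 mitosis genes is a point, placed by its mean log2 intensity over 6 arrays and by its log2 difference (GFP positive minus GFP negative). Lines join probe sets of a gene, filled points were called higher, and colours pick out 6 genes. Lines for Ccna2, Smc2 and Tpx2 fall toward the right, from 0.99 to 0.50 in Ccna2.

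Of the probe sets that represent a member, 4 end in x_at and 5 in s_at, the maker's marks for probes that may match other transcripts. They include those of Cdc20, Cdc25c, Bub1b and Cdca8. Cdc20, Cdc25c and Bub1b were also called on other probe sets. Cdca8 was called on this probe set alone, with differences of 0.57 (adjusted p = 0.0503) and 0.59 (adjusted p = 0.0604) on its others.

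Other genes of mitosis moved less broadly. In 4 further lists with 71 measured genes, 15 rose and 2 fell, or 21.1% higher, with a median of 0.28. Of all genes, 8.15% were called higher and 9.92% lower. Among other kinetochore genes 9 of 26 rose, led by Oip5, which loads Cenpa onto centromeres, at 1.94-fold (adjusted p = 0.00637). Cenpl rose 1.89-fold (adjusted p = 0.0260, lost without N2, P1 or P2) and the microtubule-binding Ska1 1.86-fold (adjusted p = 0.00685). Cenpb, which binds centromeric DNA repeats, fell by 0.65 on the log2 scale (adjusted p = 0.0135).

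Among other kinases and regulators 5 of 17 rose and 1 fell. Cyclin F (Ccnf) rose 2.25-fold (adjusted p = 0.00779) and Mybl2, the MuvB partner B-Myb, 1.75-fold (adjusted p = 0.0185, lost without N2, N3, P2 or P3). Cep55, which recruits the machinery that cuts the bridge between daughter cells, went from 11.75 ± 0.11 to 10.83 ± 0.14 (SD, n = 3 each), 1.89-fold lower (adjusted p = 0.00443). It was lower on all 3 GFP-positive arrays, against the direction of every called member. Of 14 subunits and regulators of the anaphase-promoting complex only the inhibitor Fbxo5 rose (1.64-fold, adjusted p = 0.0217, lost without N2, N3, P1 or P2). That is 7.14% of the list, near the 8.15% of all genes called higher. Of 14 genes of cohesin and condensin II, 0 rose and 0 fell by limma adjusted p, with a median of 0.05. At an unadjusted p under 0.05, 4 were higher and 0 lower, against 3995 and 2748 of all 18193 genes.

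The lists nearest in function lay on either side. Mitotic kinesins rose for 9 of 12 genes, with a median of 0.79, led by Kif14 at 3.26-fold (adjusted p = 0.00139). Kif14 was dim, reading 5.11, 4.96 and 5.14 on GFP-negative arrays, below the median log2 intensity of each (5.99 to 6.02). DNA replication genes rose for 6 of 44, or 13.6%, with a median of 0.17, led by Orc1 at 1.85-fold (adjusted p = 0.0122). The share called higher was 8.15% of all genes and 11.7% of genes at least as bright as the dimmest member. The lists also differed in brightness, with a median log2 intensity of 9.33 for kinesins, 11.08 for the members and 11.84 for replication genes. Dimmer members had larger differences, as given above. The medians are descriptions, and differences between the lists were not tested.

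**Figure D3:**
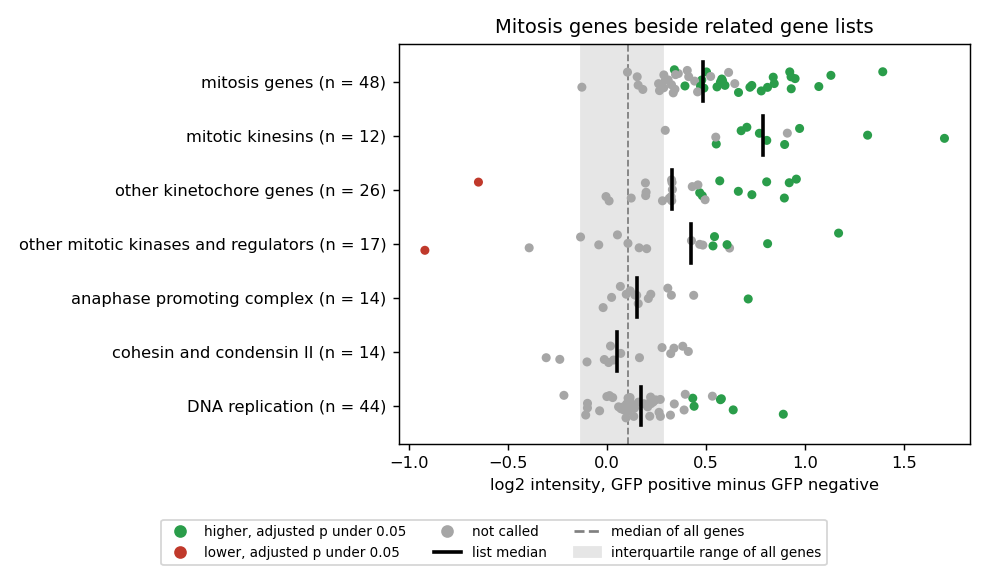
Each point is a gene, placed by its log2 difference (GFP positive minus GFP negative), in green where called higher, red where called lower and grey where not called. Black bars mark list medians, the dashed line the median of all genes at 0.11 and the grey band the interquartile range of all genes. Mitosis genes and kinesins lie mostly to the right of the band, while DNA replication genes lie mostly within it.

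Markers of blood lineages also differed between the groups, in different directions. Over all genes, 8.15% were called higher and 9.92% lower. Of 10 measured erythroid markers 6 rose and 0 fell, and their mean log2 intensity ran from 10.34 to 10.40 on GFP-negative and from 11.03 to 11.26 on GFP-positive arrays. All 9 granulocyte and monocyte markers fell, from a mean of 12.30 to 12.39 down to 10.52 to 10.93. All 7 markers of multipotent progenitors fell, from 10.04 to 10.38 down to 8.04 to 8.35. Of 6 mast cell, basophil and eosinophil markers 1 rose and 3 fell, with a mean log2 intensity of 8.18 to 8.46 on GFP-negative arrays, 6.52 on P1, 6.57 on P2 and 7.75 on P3. Of 5 megakaryocyte markers 1 rose and 0 fell. B lymphoid markers gave 0 higher and 2 lower of 9. Their mean was 7.64 on N3, 7.34 on P1 and 6.70 to 6.93 elsewhere. That mean includes Igk itself, at 9.99 on N3 and 11.14 on P1, so it does not stand apart from Igk. Ebf1 was highest on N3, at 8.72 against 5.68 on N1 and 5.43 on N2. On P1, P2 and P3 it read 7.30, 6.70 and 7.55. Vpreb1 was also highest on N3 at 8.22, with 8.10 on P3 and 6.76 to 7.65 elsewhere. Cd79b and Pax5 did not follow, reading 10.47 and 5.39 on N3, the lowest GFP-negative value of each. T and natural killer markers gave 2 higher and 1 lower of 9, and stromal and endothelial markers 0 higher and 1 lower of 6. The T cell markers called higher were dim. Cd8b1 went from a mean of 3.40 to 3.92 and Zap70 from 5.37 to 5.81, below the median log2 intensity of each array (5.90 to 6.02). Nkg7, called lower, went from 12.83 to 11.67. The part of these shifts in cell type in the mitosis result was not tested.

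**Figure D4:**
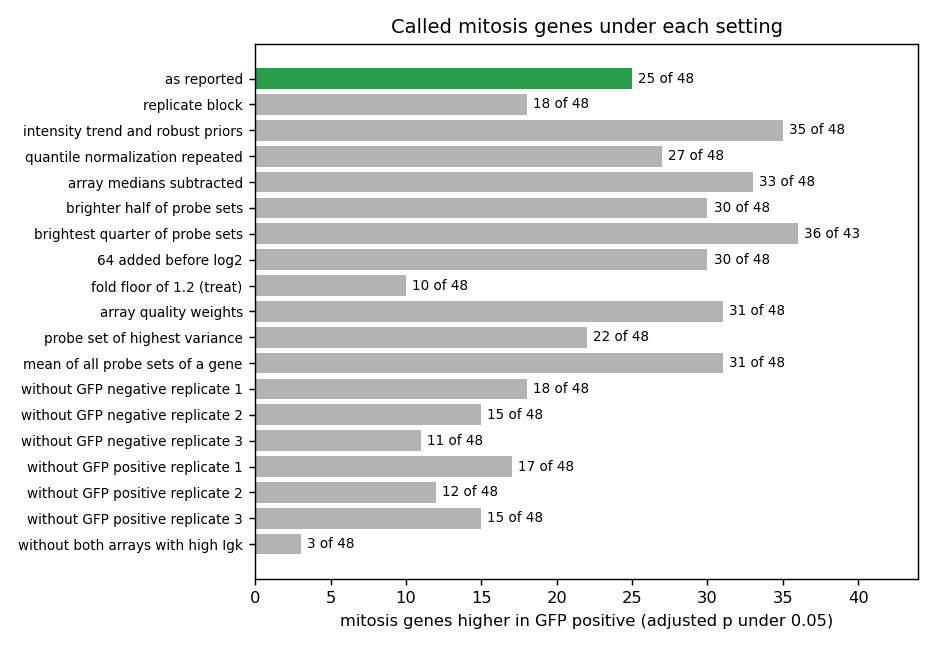
Bars give the number of mitosis genes called higher in GFP-positive arrays (adjusted p under 0.05) as reported, in green, and under each other way of processing, in grey, with the number of genes measured in that setting. The count was 25 as reported, ran from 11 to 18 without 1 array, and was 3 without N3 and P1, the arrays with high Igk. Over all genes the share called higher was 8.15% as reported, 3.37% to 6.23% without 1 array and 2.08% without N3 and P1.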

How the data were processed

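The authors deposited 1 intensity per probe set and array, computed with RMA per the submitters' processing notes, and the numbers are linear. For the RMA settings and the step from log to linear values no source used here gives details. Control probe sets (64 of 45101) were removed. Log2 values were compared between 3 GFP-positive and 3 GFP-negative arrays in R 4.3.3 using limma 3.58.1 (lmFit, then eBayes, with no covariate, 2-sided, Benjamini-Hochberg over 45037 probe sets, threshold 0.05). Each gene's values are those of its brightest probe set by mean. Precision is limited by the number of arrays.

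The members and lists were chosen with earlier results of these data known. Values in every array were set to be given for up to 3 called members of each of 8 roles with the largest change, and others were added after their values were seen (Cdc25b, Cdk1, Pttg1, Mki67, Top2a, part of Bub1). Of other lists up to 3 called genes were named, and Cenpb was added. The comparison of bright and dim probe sets and the split by level were also chosen after the data were seen. So was the background of genes at least as bright as the dimmest member, which is a lower cut and not a match in brightness. Replicate numbers were not treated as pairs, since the labels do not say that they pair. Deviations of same-numbered arrays from their group means correlated at 0.023, 0.055 and 0.019. These values are low but were the highest across groups for all 6 arrays, so pairing remains possible. With the number as a block 18 members and 5.61% of all genes were called higher. On simulated data with 200 changed among 45037 probe sets, 39.6% of log2 changes of 1 and 85.6% of changes of 2 were recovered, with 4.86% of 658 calls false. In the deposited data 8.15% of genes were called higher and 9.92% lower, a far larger share. The simulated rates therefore check the fit and do not give the power of this comparison. Promoter windows came from RefSeq (GRCm38.p6). Alternatives are given in the closing section. Other software was Python 3.11.15, pandas 2.3.3, numpy 2.4.6 and matplotlib 3.10.9.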

Additional observations from a re-analysis of the deposited data

How the results depend on the processing

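The direction of the list held in each alternative run: 0 members were called lower, and at least 42 of 43 or 45 of 48 members lay above 0. The count of members called higher was 25 as reported. It was 10 with a fold floor of 1.2 (limma treat), from 11 to 18 without 1 array, and 3 without both arrays with high Igk, where 4 arrays remain. The share of all genes called higher was 8.15% as reported. It was 2.92% with the fold floor, 3.37% to 6.23% without 1 array and 2.08% without both arrays with high Igk. In 9 other settings without a block the count of members ran from 22 to 36, and the share of all genes from 8.57% to 21.4%. The count was 36 of 43 when the tested probe sets were limited to the brightest ones, where 21.4% of all genes were called higher. It was 35 of 48 with an intensity trend and robust priors, where 9.38% of all genes were. With the replicate number as a block the count was 18, and 5.61% of all genes were called higher. By deviation from its group mean, each of the 6 arrays correlated best with the array of its own number in the other group. This is a hint from the data and not from the design. The median difference was 0.48 as reported, 0.57 when the most variable probe set stood for each gene and 0.45 to 0.54 without 1 array. On the most variable probe set Pttg1 reversed to -0.41 and Bub3 to -0.17, neither of them called, and 6 called members lost their calls (Nek2, Ttk, Cdca8, Cenpa, Dlgap5 and Ncaph; adjusted p from 0.0604 to 0.722). Pttg1 also reversed to -0.023 with the mean of its probe sets. The cause of these shifts was not tested.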
